A study of Mus musculus with 4 samples.

Results

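The comparison set the liver of mice that lacked both the growth hormone receptor (GHR) and MDR2 against the liver of wild-type mice, gene by gene. Its members were the 10487 genes whose intensity reached 100 on at least 1 of the 2 arrays, which was 52.6% of the 19938 genes measured by probe sets with exactly 1 gene symbol. The threshold is close to the median probe set of these arrays, and the other 9451 genes lay below it in both pools. Each side was 1 whole-transcript microarray hybridised with RNA pooled from 3 livers of male-labelled mice at 8 weeks of age. The series also holds 1 such pool each of MDR2-null and of GHR-null mice, so 4 arrays in all, and its title asks whether cholestatic fibrosis is worse where the liver resists growth hormone. All 4 groups were livers of mice under standard husbandry with no agent given, and the strain, litter and the design of the deleted alleles are not given in the sources used here. No genotype had a second array, so each difference below describes a pair of pools, has no replicate check and carries no p-value, and differences between mice of 1 pool cannot be seen.

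Growth hormone binds its receptor on hepatocytes, which activates JAK2 and the transcription factor STAT5, and STAT5 drives the gene of insulin-like growth factor 1 (IGF1), the circulating mediator of much of the hormone's effect. Male and female rodents secrete growth hormone in different patterns, and many liver genes differ between the sexes for that reason. MDR2, the product of Abcb4, moves phosphatidylcholine into bile; without that lipid, bile acids injure the bile duct epithelium, and inflammation, duct proliferation and periductal fibrosis follow in these mice.

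Where 4 intensities stand in a row they are those of the wild-type, the MDR2-null, the GHR-null and the double-null pool, in that order. The difference given after them is the log2 intensity of the double-null pool minus that of the wild-type pool. Intensities of different genes are not compared, because they come from different probes. As a scale for these differences, a spread of 0.23 on the log2 scale was estimated for the typical gene. It was taken from the departure of the 4 pools from additivity over 10764 genes, whose robust standard deviation was 0.325. That value was rescaled to a single difference, assuming equal and independent noise on all 4 arrays. That spread holds real non-additivity too, and single genes can be noisier.

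The targeted genes were read first. Ghr measured 4944, 4485, 1395 and 935, a difference of -2.40, so the double-null pool was the lowest and both pools labelled as lacking the receptor lay below the others. Abcb4 measured 1120, 663, 1346 and 689, a difference of -0.70. Both pools labelled as lacking MDR2 were lower than both others, but by less than for Ghr. Which part of either gene the probes cover was not analysed here, so the signal that is left says nothing about protein. The Y-linked Eif2s3y measured 899, 840, 680 and 951. Xist, the RNA that silences an X chromosome in female cells, measured 16, 18, 1400 and 17, so the wild-type and double-null pools match their label and the GHR-null pool, labelled male, has a high Xist intensity beside its Y-linked signal. The GHR-null values below are given beside the others with that limit. Alb, the gene of serum albumin, measured 15283, 15242, 13255 and 14956, and none of the 19 measured hepatocyte secreted proteins was 1.5-fold apart between the double-null and wild-type pools.

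At a 2-fold threshold 722 of the 10487 genes were higher in the double-null pool, which is 6.88%, and 312 were lower, which is 2.98%. Of the 1034 genes past the threshold 69.8% were higher. At 4-fold the counts were 164 higher and 88 lower, and at 8-fold they were 34 and 36. Most genes were close: 78.7% lay within 1.5-fold, and the median difference was 0.01. Among the 722 higher genes, 359 were under an intensity of 100 in the wild-type pool; among the 312 lower genes 77 were under 100 in the double-null pool. No detection call was used, so for such genes the lower intensity may be background, and the fold describes intensities.

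**Figure D1:**
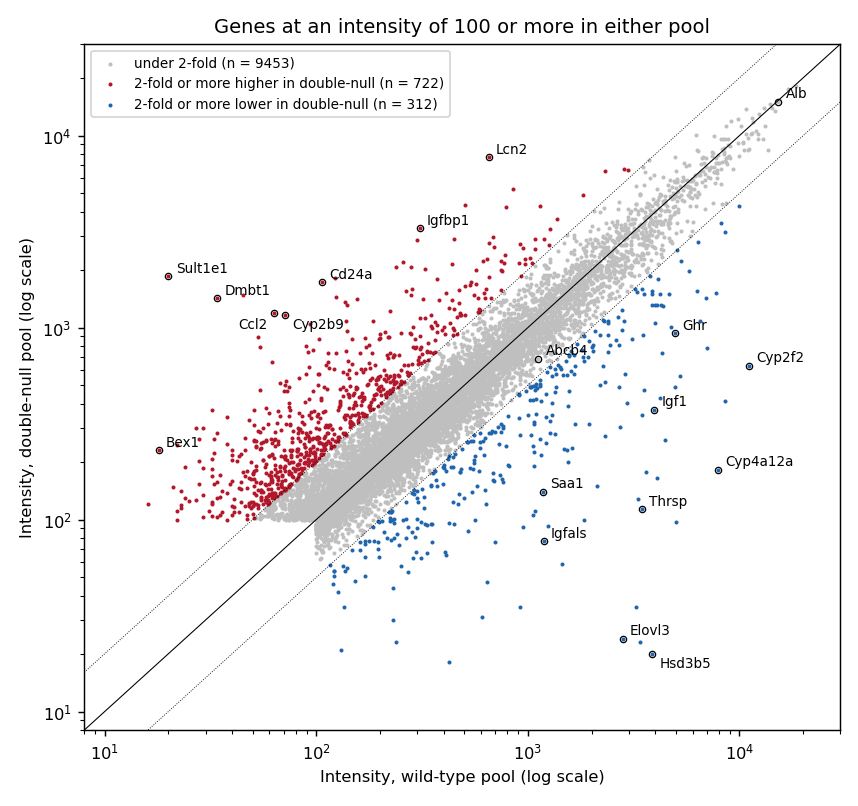
Intensity in the wild-type pool (horizontal, log scale) against the double-null pool (vertical, log scale) for the 10487 genes at 100 or more in either; each point is 1 gene, 1 array per pool. Dotted lines mark 2-fold; 722 red genes lie above and 312 blue genes below them, with Sult1e1 (20 and 1845) and Hsd3b5 (3877 and 20) farthest from the line of equality.

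The highest gene was Sult1e1, the oestrogen sulfotransferase, at 20, 36, 1114 and 1845 (6.53). Dmbt1, a scavenger protein secreted by duct epithelium, followed at 34, 357, 37 and 1419 (5.38), and Ccl2, the chemokine that draws monocytes, at 63, 290, 63 and 1192 (4.24). Sult1e1 was also high in the GHR-null pool, whereas Dmbt1 and Ccl2 were intermediate in the MDR2-null pool and at their wild-type level in the GHR-null pool. Rragd, a GTPase of the amino acid sensing branch of mTORC1, measured 53, 180, 51 and 894 (4.08). Folh1, a glutamate carboxypeptidase, measured 27, 33, 24 and 301 (3.48). Folh1, like Scn7a (32, 47, 38 and 371) and Bex1 (18, 20, 17 and 229), was under 50 in all pools but the double-null one. Tmem45a (93, 260, 115 and 1044) and Spink1, a trypsin inhibitor (28, 77, 125 and 263), stood between 9-fold and 12-fold higher.

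The lowest gene was Hsd3b5, a male-biased liver enzyme of the steroid dehydrogenase family, at 3877, 367, 21 and 20, which is 194-fold lower. Serpina4-ps1, a serpin pseudogene, measured 3380, 731, 29 and 23, and Elovl3, a fatty acid elongase, 2806, 1103, 28 and 24. These 3 were as low in the GHR-null pool as in the double-null pool, and all were below wild type in the MDR2-null pool too. A different order was seen for Thrsp, a nuclear protein that promotes fatty acid synthesis. Thrsp measured 3449, 2796, 2274 and 113 (-4.93), with both single-null pools much nearer to wild type. Ces3b, a carboxylesterase, had 4992, 3258, 1105 and 97 (-5.69), and Sult2a8, a sulfotransferase, 3605, 1781, 1861 and 176 (-4.36). Cyp2f2, a cytochrome P450 of periportal hepatocytes, was 11138, 9594, 8133 and 631 (-4.14). Paqr9 measured 1835, 797, 1148 and 100 (-4.20), and Wfdc21 1446, 808, 477 and 59 (-4.62). Thrsp, Cyp2f2 and Paqr9 share a pattern in which the double-null pool lay far below both single-null pools.

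The members of 51 gene lists were then set against this background. A member counts as higher or lower in a list when it was at least 1.5-fold apart and reached 100 in either pool; over all 19938 measured genes 7.21% were higher and 3.99% lower by that rule, and over the 10487 genes that reached 100 the shares were 13.7% and 7.59%. The median difference over all measured genes was 0.00. Counts are out of all measured members, with the number that reached 100 given beside them. A gene that reached 100 in the double-null pool but not in the wild-type pool could count only as higher, and the reverse only as lower. Some members named below were not among the 6 with the largest difference in a list. They were on a panel of liver genes or were chosen after their values were seen. The latter include Cish, Socs2, Igfbp2, Cyp2b10, Cftr, Sox9, Gjb1, Gpc3, Jag1, H2-Eb1 and Cxcl11. They also include Inhbe, Abcc3, Slc51b, Mlxipl, Elovl6, Mylip, Cyp2c37, Cyp17a1, Orm2, Atf4 and C9. In bulk liver RNA, fewer cells of a type and less RNA per cell cannot be told apart.

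**Figure D2:**
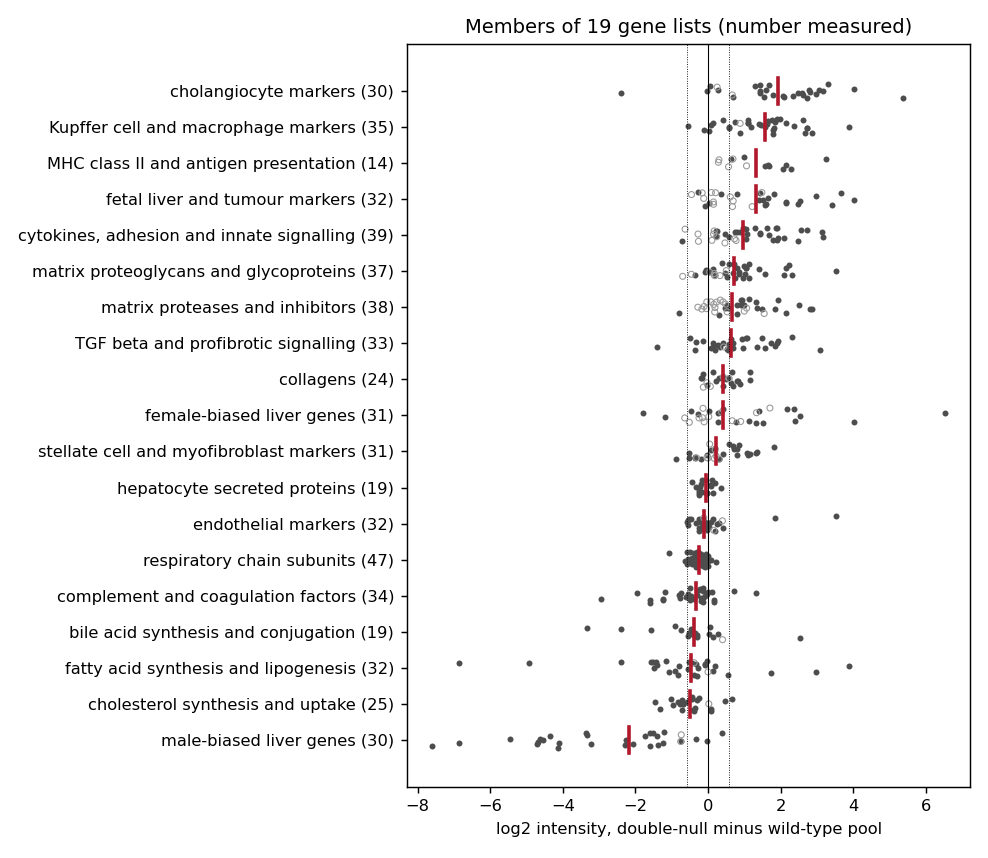
Log2 intensity of the double-null minus the wild-type pool (horizontal) for the measured members of 19 lists (rows, number measured in brackets), ordered by median. Filled points reached an intensity of 100 in either pool, open points did not, red bars are list medians and dotted lines mark 1.5-fold; the medians run from -2.16 for male-biased liver genes to 1.93 for cholangiocyte markers.

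Promoters of genes on the growth hormone and sex-biased lists are shown first, because the highest and the lowest gene, Sult1e1 and Hsd3b5, are on the sex-biased lists. STAT5 binds a palindrome of the form TTCNNNGAA, which reads the same on both strands. The 3 windows below are those of genes named here on the growth hormone and sex-biased lists or among the extremes that hold the motif and differ most. Sult1e1 and Hsd3b5 themselves are not among the genes found to hold the motif. They run from 250 bases before to 50 bases after the start site in RefSeq (GRCm38.p6), 5′ to 3′ on the gene's strand, with each match in capitals. Keg1 is at chr19:12695540-12695839, Igfals at chr17:24877594-24877893 and Cish at chr9:107296409-107296708, all on the plus strand.
Keg1: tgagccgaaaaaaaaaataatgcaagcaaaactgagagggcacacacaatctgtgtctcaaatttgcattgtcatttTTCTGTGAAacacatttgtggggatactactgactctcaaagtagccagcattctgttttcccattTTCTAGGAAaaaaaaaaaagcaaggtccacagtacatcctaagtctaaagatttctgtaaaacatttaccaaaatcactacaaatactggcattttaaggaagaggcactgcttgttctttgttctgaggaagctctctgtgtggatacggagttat
Igfals: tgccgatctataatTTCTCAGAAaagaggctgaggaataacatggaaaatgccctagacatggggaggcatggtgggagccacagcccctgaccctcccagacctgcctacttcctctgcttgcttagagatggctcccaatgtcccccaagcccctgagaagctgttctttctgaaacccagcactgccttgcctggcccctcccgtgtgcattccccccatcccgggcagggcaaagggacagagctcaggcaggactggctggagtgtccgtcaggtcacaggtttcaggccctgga
Cish: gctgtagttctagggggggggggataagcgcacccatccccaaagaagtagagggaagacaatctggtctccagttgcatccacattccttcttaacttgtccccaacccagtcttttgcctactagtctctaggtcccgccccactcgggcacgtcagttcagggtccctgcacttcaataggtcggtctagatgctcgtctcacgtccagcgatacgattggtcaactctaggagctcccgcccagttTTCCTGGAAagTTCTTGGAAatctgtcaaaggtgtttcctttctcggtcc
The Keg1 matches begin 173 and 107 bases before the start site and that of Igfals 236 before it. Igfals has 3 such windows, of which 2 hold the motif and 1 is printed. In Cish the first match begins at the start site and the other 11 bases after it. Among the windows of genes that reached 100, 6.63% of 10748 hold the motif. The share was 6.90% for genes 2-fold higher, 9.31% for genes 2-fold lower, 18.2% (6 of 33 windows) for the growth hormone axis list and 18.5% (5 of 27) for male-biased genes. Female-biased genes stood at 14.3% (5 of 35). The list shares take in all measured members with a window, also those that did not reach 100. The AP-1 type motif TGANTCA also reads the same on both strands and can overlap the first. Its shares were 5.28% of all, 8.48% of the genes 2-fold higher and 9.31% of those 2-fold lower. On the lists they were 9.09% for the growth hormone axis, 14.8% for male-biased and 11.4% for female-biased genes. So the AP-1 type motif, too, stood above its share of all windows on each of these lists. A match is a description of these letters and not a binding site.

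On the growth hormone and IGF axis, Igf1 and Igfals of the circulating IGF1 complex were lower and 2 binding proteins that restrain IGF were higher. Igf1 measured 3951, 3766, 1546 and 374 (-3.40), with the MDR2-null pool at the wild-type level. Igfals, which encodes the acid-labile subunit that stabilises IGF1 in blood, measured 1188, 856, 395 and 77 (-3.95). For both genes the double-null pool lay below the GHR-null pool as well. Cish, the feedback inhibitor whose promoter holds 2 matches above, had 352, 320, 154 and 95 (-1.89). Socs2, another feedback inhibitor induced by STAT5, differed less (782, 535, 243 and 605; -0.37), with its lowest value in the GHR-null pool. Egfr, the receptor of epidermal growth factor, measured 4315, 3596, 558 and 741 (-2.54), and Onecut1, the hepatocyte transcription factor HNF6, 1150, 436, 248 and 218 (-2.40). In the other direction stood Igfbp1 at 308, 353, 1208 and 3284 (3.41) and Igfbp2 at 691, 549, 1360 and 2628 (1.93). Igfbp1 and Igfbp2 were near or below wild type in the MDR2-null pool and highest in the double-null pool. Of 28 measured members, of which 26 reached 100, 4 were higher and 7 lower; the median of 0.03 changed sign to -0.03 when arrays were centred on the median gene, so the list has no direction as a whole. The signalling genes Jak2 (249, 258, 327 and 346), Stat5a (245, 282, 379 and 294) and Stat5b (554, 443, 656 and 431), chosen after their values were seen, lay within 1.5-fold.

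Male-biased liver genes were lower nearly throughout. Of 30 measured members, 28 reached 100, 25 were at least 1.5-fold lower and none was higher, with a median of -2.16. The median was -1.62 in the GHR-null and -0.30 in the MDR2-null pool against the same wild-type array. Cyp4a12a, a fatty acid hydroxylase, measured 7891, 7139, 140 and 181 (-5.45). Its close relative Cyp4a12b had 4464, 4977, 61 and 260 (-4.10), and probes for these paralogs may share signal. In both, the double-null and GHR-null pools lay far below the other pair. Mup21 (922, 400, 48 and 35; -4.72) and Mup3 (8541, 7520, 2209 and 415; -4.36) encode major urinary proteins, pheromone carriers of a family of near-identical genes whose probe sets are therefore uncertain. Keg1, an acyltransferase-like gene whose promoter is printed above, measured 3317, 2591, 604 and 128 (-4.70). Slco1a1, a sinusoidal organic anion transporter, had 4072, 2419, 372 and 165 (-4.63), and the odorant-binding Obp2a 422, 311, 19 and 18 (-4.55). For Mup3, Keg1 and Slco1a1 the double-null pool lay below the GHR-null pool, while Hsd3b5, Elovl3 and Obp2a were at about the same low intensity in both.

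Female-biased genes were mixed. Of 31 measured members, 19 reached 100, 11 were higher and 2 lower, with a median of 0.41. Cyp39a1, an oxysterol hydroxylase, measured 266, 226, 1359 and 1549 (2.54), and Abcd2, a peroxisomal fatty acid transporter, 280, 146, 2041 and 1473 (2.40). Both were at a similar level in the GHR-null and double-null pools. Cyp2b9 measured 71, 51, 5952 and 1162 (4.03) and Cyp2a22 211, 212, 4368 and 948 (2.17), P450 genes of families with close paralogs. Several other members that were high in the GHR-null pool were low in the double-null pool. Cyp2b13 measured 15, 14, 2545 and 28, Hao2, a peroxisomal hydroxyacid oxidase, 19, 23, 1507 and 48, and A1bg 19, 18, 121 and 16; these 3, picked out once their values were known, did not reach 100 in either of the pools compared. Cyp2b10, an enzyme induced through the receptor CAR, had 472, 364, 1677 and 136 (-1.80). The list's median was 1.83 in the GHR-null pool, the pool in which Xist was also high; the part of sex in these values was not tested.

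**Figure D3:**
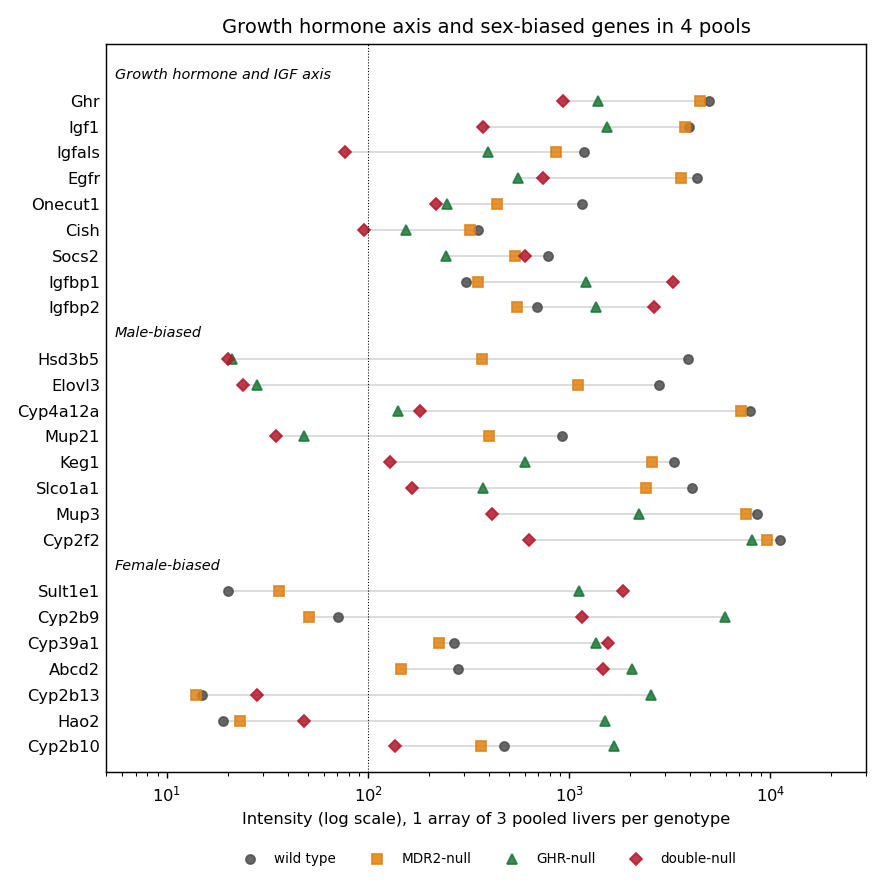
Intensity (horizontal, log scale) of growth hormone axis and sex-biased genes (rows) in the 4 pools; each symbol is 1 array of 3 pooled livers and the dotted line is 100. Most male-biased genes lie farther left in the GHR-null and double-null pools (Hsd3b5 at 21 and 20) than in the wild-type pool (3877). Cyp2f2 lies far left in the double-null pool only (631, against 8133 in the GHR-null pool). Cyp2b13 and Hao2 are high in the GHR-null pool alone among the 4.

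Bile duct epithelial genes were higher almost as a block. Of 30 measured cholangiocyte markers 28 reached 100, 24 were higher and 1 was lower, with a median of 1.93. The summed intensity of the list was 4139, 6943, 3811 and 12587. Members under 100 in the wild-type pool, among them Epcam, Krt19, Krt7, Cftr, Tspan8 and Krt23, could count only as higher. The median and the summed intensity take in all measured members. Cd24a, a surface glycoprotein of ductal and progenitor cells, measured 106, 470, 126 and 1722 (4.02). Epcam, the epithelial adhesion molecule, had 48, 113, 40 and 329 (2.78), and Krt19 and Krt7, the duct keratins, 71, 122, 79 and 214 (1.59) and 77, 122, 71 and 266 (1.79). For these genes the MDR2-null pool lay between wild type and the double-null pool, and the GHR-null pool stayed at the wild-type level. Cftr, the chloride channel of bile duct cells, measured 23, 36, 22 and 141 (2.62), and Tspan8 34, 66, 33 and 281 (3.05). Plet1 differed from the rest in that the MDR2-null pool, at 1521, was above the double-null pool, at 1356, against 136 in wild type. Krt23 was higher in all 3 mutant pools (38, 171, 222 and 340; 3.16). Sox9, the transcription factor of duct cells, measured 202, 250, 127 and 495 (1.29). The member that was lower was Onecut1, which hepatocytes also express. Tight junction and epithelial genes followed with 13 higher and 2 lower of 42 measured (31 reached 100), the claudins Cldn6 (70, 146, 61 and 468; 2.74), Cldn7 (55, 118, 61 and 236; 2.10) and Cldn4 (75, 139, 71 and 314; 2.07) among them. The hepatocyte gap junction gene Gjb1 went the other way at 1380, 928, 1140 and 639 (-1.11).

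Genes of fetal liver and liver tumours were also higher in 16 of 32 measured members, of which 20 reached 100, and none was lower. Members under 100 in the wild-type pool, among them Afp, Igf2bp3, Gpc3, Bex1 and Cap2, could count only as higher. Afp, the fetal counterpart of albumin, measured 58, 55, 61 and 259 (2.16). Igf2bp3, an RNA-binding protein of fetal tissue, had 46, 38, 72 and 267 (2.54), and Gpc3, an oncofetal proteoglycan, 50, 44, 74 and 175 (1.81). In these 3 genes and in Bex1, neither single-null pool reached 100. Cap2, an actin regulator, measured 62, 126, 218 and 659 (3.41), and Scd2, a desaturase of fetal liver, 138, 221, 777 and 1076 (2.96); both were intermediate in the GHR-null pool. Afp is a hepatocyte gene, but the list's Cd24a and Tff3 (102, 200, 103 and 571) are also duct genes, and the share of duct cells in this list was not tested. The imprinted fetal gene Igf2, chosen after its values were seen, was under 100 in all 4 pools (82, 79, 94 and 91).

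Among Notch and Hippo pathway genes 9 were higher and 1 lower of 25 measured (22 reached 100; median 0.50). Ccn2, connective tissue growth factor and a target of YAP and TGF beta, measured 258, 532, 202 and 2197 (3.09). Ankrd1, another YAP target, had 32, 83, 36 and 206 (2.69), and Ccn1 280, 574, 321 and 927 (1.73). The Notch ligand Jag1 measured 103, 128, 97 and 254 (1.30). Tead1, the DNA-binding partner of YAP, was 133, 266, 286 and 490 (1.88), while Yap1 itself, chosen after its values were seen, differed little (496, 464, 504 and 476). Hes6 was the lower member (766, 747, 496 and 307; -1.32).

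Macrophage genes were higher in most members. Of 35 measured Kupffer cell and macrophage markers 34 reached 100, 26 were higher and none was lower (1 was after cyclic loess or centring on the median gene), with a median of 1.57 and a summed intensity of 9505, 19747, 13280 and 28055. Cd63, a lysosomal tetraspanin found in other cells too, measured 122, 371, 171 and 1804 (3.89). Cx3cr1, the fractalkine receptor of monocyte-derived macrophages, had 72, 168, 62 and 525 (2.87), and Ccr2, the receptor of Ccl2, 29, 118, 33 and 186 (2.68). Lyz2, lysozyme of myeloid cells, measured 847, 2879, 977 and 5243 (2.63), and Cd14, the endotoxin co-receptor, 83, 296, 84 and 545 (2.72). Markers of resident Kupffer cells were split. Vsig4 measured 666, 1578, 1075 and 1426, more than 2-fold higher, and Adgre1, the F4/80 antigen of macrophages, 302, 593, 426 and 645 (1.09). Clec4f measured 677, 885, 993 and 628, Timd4 251, 323, 368 and 258 and Cd5l 439, 604, 637 and 468, each within 1.5-fold of wild type in the double-null pool; Vsig4 and these 3 were singled out after their values were seen.

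Antigen presentation genes were higher in 9 of 14 measured members, which are all the members that reached 100, with a median of 1.32. Cd74, the invariant chain, measured 438, 1986, 764 and 2153 (2.30), and H2-Aa, a class II chain, 654, 1826, 970 and 2763 (2.08). For Cd74, H2-Ab1 (535, 1424, 682 and 1673) and H2-Eb1 (426, 1355, 668 and 1266) the MDR2-null pool was about as high as the double-null pool. H2-Ea measured 299, 2927, 822 and 2854 (3.25); some inbred strains do not express this gene, no source used here states the strain of the pools, and strain and genotype cannot be told apart for it. Without H2-Ea, 8 of 13 members were higher, with a median of 1.06. The clone-named locus D17H6S56E-5, chosen after its values were seen, had a like pattern of high MDR2-null and double-null values (45, 1016, 79 and 1480; 5.04).

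Lymphocyte and granulocyte markers gave few values. Of 28 T and NK cell markers 2 reached 100 and none was 1.5-fold apart (summed intensity 1214, 1503, 1438 and 1347). Of 28 neutrophil, mast and dendritic cell markers 2 reached 100 and both were higher. They are Csf3r (51, 88, 73 and 121, a difference of 1.25) and Cd209a (64, 119, 78 and 116, a difference of 0.86). Of the 2 pools compared, both genes reached 100 in the double-null pool alone, so the filter itself set their direction. Of 19 B and plasma cell markers 6 reached 100, and Jchain, the joining chain of secreted antibodies, was higher (53, 88, 91 and 289; 2.45). Endothelial markers were close to wild type, with 2 of 32 higher and none lower (29 reached 100), or 2 and 3 lower after cyclic loess and after centring on the median gene. Those 2 are Sparcl1 (124, 326, 239 and 1437; 3.53) and Cd34 (87, 151, 98 and 314; 1.85), both of which other stromal cells express as well. The next largest differences of the list were downward and under 1.5-fold, for Lyve1 (-0.58), Oit3 (-0.55), Icam2 (-0.55) and Ehd3 (-0.52).

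Chemokine and cytokine genes past the threshold were more often higher than lower, and interferon-induced ones more often lower than higher. Of 40 measured chemokines and receptors 25 reached 100, 14 were higher (8 with both arrays floored at 100) and 2 lower; of 39 cytokine, adhesion and innate signalling genes 29 reached 100, 23 were higher and 1 lower, with a median of 0.95. Beside Ccl2, the chemokine Ccl20, a ligand of CCR6, measured 51, 96, 59 and 260 (2.35), and Cxcl16, a membrane-bound chemokine, 113, 336, 146 and 660 (2.55). Vcam1, a leukocyte adhesion receptor, had 147, 399, 180 and 875 (2.57), and Tnfaip3, a feedback inhibitor of NF-kappa B, 54, 191, 87 and 473 (3.13). Mfge8, a bridging protein for the uptake of dying cells, was nearly as high in the MDR2-null pool (155, 1251, 227 and 1404; 3.18). Among the interferon-induced ligands of CXCR3, Cxcl10 was higher (60, 100, 67 and 111; 0.89), and the 2 lower chemokines were Cxcl9 (216, 470, 367 and 80; -1.43) and Cxcl11 (196, 143, 369 and 70; -1.49). Cxcl9 was above wild type in each single-null pool and below it in the double-null pool. In the interferon list 2 of 31 were higher and 6 lower (26 reached 100; median -0.15). Iigp1, an interferon-induced GTPase, measured 1219, 978, 789 and 249 (-2.29), and the antiviral Ifit3 303, 283, 268 and 124 (-1.29).

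Matrix genes past the threshold were higher. Of 24 measured collagens 19 reached 100, 8 were higher and none lower (median 0.42). With both arrays floored at 100, which was tried after the data were seen, 5 stayed past 1.5-fold. Col1a1 measured 188, 373, 159 and 423 (1.17), and Col3a1 180, 353, 166 and 311 (0.79). Both collagen genes were at a similar level in the MDR2-null and double-null pools. Of 37 proteoglycans and glycoproteins 30 reached 100, 21 were higher and none lower (median 0.72). Lum, the collagen-binding lumican, measured 417, 241 and 929 in the 3 mutant pools (2.22), and Vcan, versican, 23, 38, 30 and 115 (2.32). Nid1, a basement membrane linker, was high in both MDR2-lacking pools (727, 280 and 883 in the mutant pools; 2.15). Sparcl1 and Lum, unlike Col1a1, stood more than 2-fold above the MDR2-null pool in the double-null one.

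Among 38 measured matrix proteases and inhibitors 21 reached 100, 16 were higher and 1 lower (median 0.67). Mmp7, matrilysin of injured duct epithelium, measured 71, 113, 54 and 502 (2.82), Mmp12, the macrophage elastase, 51, 133, 42 and 374 (2.87), and Timp1, an inhibitor of these enzymes, 40, 129, 42 and 229 (2.52). All 3 were below 150 in every pool but the double-null one. They were under 100 in the wild-type pool, so they could count only as higher. Of 33 TGF beta and profibrotic genes 32 reached 100, 17 were higher and 1 lower (median 0.62). Besides Ccn2, the ligand Tgfb2 measured 46, 116, 48 and 229 (2.32), its receptor Tgfbr2 250, 477, 448 and 938 (1.91), and the ligand Tgfb1 162, 215, 187 and 249 (0.62). Pdgfd, a growth factor for mesenchymal cells, had 47, 72, 67 and 178 (1.92), and the secreted target Tgfbi 615, 1011, 925 and 2216 (1.85). The member that was lower was Inhbe, a hepatocyte activin chain (750, 869, 652 and 285; -1.40).

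Of 31 stellate cell and myofibroblast markers 23 reached 100, 11 were higher and 1 lower (3 with centring on the median gene), with a median of 0.22 and a summed intensity of 6874, 8669, 8649 and 10266. Vim, vimentin of mesenchymal and many other cells, measured 569, 1279, 794 and 1992 (1.81). Pdgfrb, the PDGF receptor of stellate cells, had 149, 289, 217 and 379 (1.35), and Cygb, cytoglobin of the same cells, 346, 709, 396 and 747 (1.11). Both were higher in the MDR2-null pool as well. Acta2, smooth muscle actin of activated myofibroblasts, had 150, 324, 216 and 223 (0.57), under 1.5-fold from wild type and highest in the MDR2-null pool. Desmin, gene Des, an intermediate filament of stellate cells that was chosen after its values were seen, was 125, 114, 102 and 122. No intensity on the arrays was below 6, so a value above 0 does not show that a marker was expressed. The part of more duct cells, macrophages or stellate cells in the matrix differences was not tested.

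**Figure D4:**
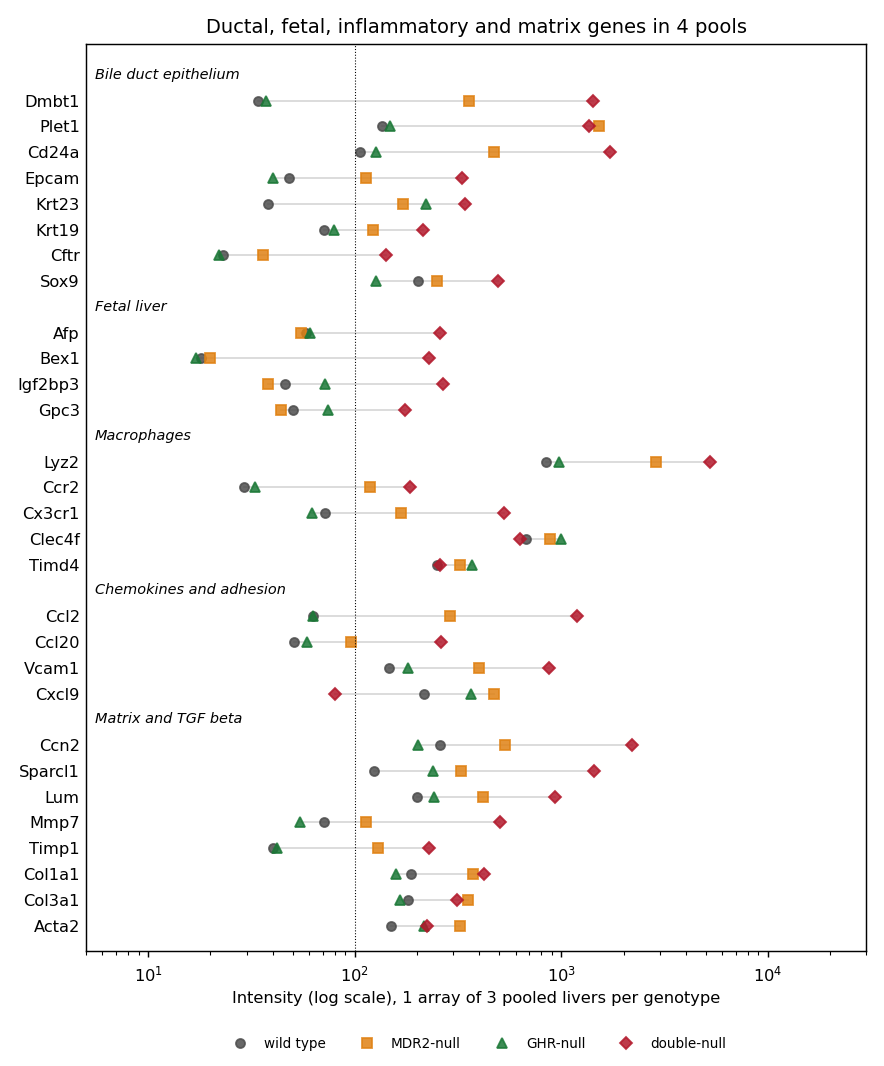
Intensity (horizontal, log scale) of duct, fetal, macrophage, chemokine and matrix genes (rows) in the 4 pools; each symbol is 1 array of 3 pooled livers and the dotted line is 100. The double-null pool lies at the right for most genes (Ccn2 at 2197, Cd24a at 1722), but Clec4f, Timd4, Col1a1 and Acta2 show the double-null pool near or below a single-null pool, and Cxcl9 shows it at the left, at 80.

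Bile acid genes differed in both directions. Cyp7a1, whose enzyme sets the rate of bile acid synthesis, measured 2703, 3732, 2621 and 2735 (0.02). Cyp8b1, which makes cholic acid, had 1666, 1229, 1036 and 316 (-2.40), and Cyp7b1, of the alternative pathway and itself male-biased, 4966, 3326, 763 and 489 (-3.34). Cyp7a1 thus stood at the wild-type level in the double-null pool while Cyp8b1 and Cyp7b1 were lowest there. Of 19 synthesis and conjugation genes 18 reached 100, 1 was higher (Cyp39a1) and 5 lower. Scp2, the sterol carrier of peroxisomal side-chain cleavage, measured 5793, 5112, 1884 and 1960 (-1.56), low in both pools that lack the receptor.

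Of 22 transporters 21 reached 100, 6 were higher and 5 lower. On the sinusoidal side, the main bile acid importer Slc10a1 (NTCP) measured 8532, 6069, 8455 and 3144 (-1.44), and Slco2b1 766, 622, 884 and 157 (-2.29). Slco1a4, another organic anion carrier, went the other way with 681, 966, 2526 and 2975 (2.13). The basolateral exporters Abcc4 (96, 115, 285 and 265; 1.46) and Abcc3 (1655, 2150, 2329 and 2919; 0.82) were higher, and so was Slc51b, a subunit of the OST exporter (88, 226, 193 and 238; 1.44). The canalicular bile salt pump Abcb11, from the panel of liver genes, stayed near wild type (2914, 2557, 4140 and 2723), a difference of -0.10. Abcb1a, a drug efflux pump and the gene 2 places from Abcb4 in gene order, measured 102, 152, 341 and 503 (2.30). Of the sensing genes, Nr1h4, the bile acid receptor FXR, measured 1242, 1271, 1094 and 781 (-0.67), its target Nr0b2 (SHP) 577, 395, 671 and 312 (-0.89), and Klb, the co-receptor of the gut hormone FGF15, 610, 316, 1059 and 329 (-0.89). In that list of 17, 13 reached 100, 1 was higher and 4 lower.

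Of 32 genes of fatty acid synthesis 30 reached 100, 13 were lower and 3 higher, and the other members did not pass 1.5-fold in either direction (median -0.46). Acacb, the acetyl-CoA carboxylase that restrains fatty acid oxidation, measured 635, 285, 547 and 120 (-2.40). Pklr, liver pyruvate kinase, had 2433, 1905, 2379 and 815 (-1.58), and Fasn, fatty acid synthase, 4193, 2720, 4563 and 1490 (-1.49). Srebf1, whose product SREBP1 drives Fasn and other lipogenic genes, measured 1454, 992, 1404 and 823 (-0.82). Mlxipl, the gene of the carbohydrate-responsive factor ChREBP that drives Pklr, measured 1345, 1117, 1587 and 608 (-1.15). In all 5 genes the MDR2-null pool was below wild type and the GHR-null pool within 1.5-fold of it. Elongases stood on both sides, with Elovl3 (above) and Elovl6 (2289, 1673, 2649 and 1086; -1.08) lower. The higher members were Elovl7 (54, 213, 60 and 791; 3.87), Scd2 and Fads3 (110, 192, 142 and 368; 1.74).

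Cholesterol synthesis and uptake genes were lower in 12 of 25 measured members and higher in 1, with 24 reaching 100 and a median of -0.49. Ebp, a sterol isomerase, measured 1924, 1462, 1855 and 699 (-1.46), Tm7sf2, a sterol reductase, 2030, 1481, 2238 and 812 (-1.32), and Insig1, the sterol sensor that retains SREBP, 5836, 3767, 6221 and 3000 (-0.96). Against the same wild-type array the median of the list was 0.10 for the GHR-null pool and -0.02 for the MDR2-null pool. The member that was higher, Mylip (194, 216, 246 and 307; 0.66), is a target of LXR that degrades the LDL receptor.

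Fat uptake and oxidation were mixed. Lpl, lipoprotein lipase, measured 373, 730, 565 and 1801 (2.27), and Cd36, a fatty acid carrier, 379, 910, 2232 and 1394 (1.88). Fabp2, a fatty acid binding protein, had 1251, 530, 871 and 92 (-3.77), and Fabp5 1033, 230, 219 and 274 (-1.91). Apoa4, an apolipoprotein, measured 3983, 4119, 2227 and 1053 (-1.92). Of 40 genes of uptake, droplets and lipoproteins 37 reached 100, 5 were higher and 6 lower. In the PPAR alpha list 34 of 37 reached 100, 5 were higher and 4 lower, or 1 lower with centring on hepatocyte proteins. Vnn1, a pantetheinase under PPAR alpha, measured 462, 727, 1504 and 1140 (1.30), and Pparg, the adipocyte receptor, 406, 491, 822 and 930 (1.20). The omega-hydroxylase gene Cyp4a14, chosen after its values were seen, was high in the GHR-null pool alone (153, 40, 4748 and 196).

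Drug and steroid metabolising enzymes were more often lower. In the CAR and PXR list 35 of 38 reached 100, 6 were higher and 16 lower (median -0.28). Beside Ces3b, the esterases Ces3a (7054, 6343, 2054 and 787; -3.16) and Ces1e (1624, 477, 1643 and 235; -2.79) were lower, as was the sulfotransferase Sult5a1 (272, 146, 133 and 53; -2.36). Ces1e was low in both pools without MDR2, and Ces3a in both pools without the receptor. Cyp2c37 was the P450 of the list with the largest difference upward, at 1135, 664, 5674 and 4293 (1.92). In the steroid list 22 of 27 reached 100, 6 were higher and 9 lower. Hsd3b2 measured 2131, 880, 427 and 150 (-3.83), and Hsd17b2, which inactivates oestradiol and testosterone, 3500, 2798, 2428 and 911 (-1.94). Cyp17a1, a steroid hydroxylase, had 257, 202, 4980 and 438 (0.77). These P450, esterase and steroid dehydrogenase families have close paralogs, so single probe sets may share signal.

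Plasma protein genes separated within the acute phase list, with 6 higher and 8 lower of 29 (28 reached 100). Lcn2, the siderophore-binding lipocalin, measured 652, 6302, 747 and 7705 (3.56), and Orm2, an orosomucoid, 922, 2242, 1314 and 2729 (1.57). Saa1, serum amyloid A, went the other way at 1181, 1631, 224 and 139 (-3.09), as did its close paralog Saa2 (4723, 7446, 1169 and 1003; -2.24) and the pentraxin Apcs (1537, 1189, 1303 and 229; -2.75). Lcn2 and Orm2 were high in both MDR2-lacking pools, and Saa1 and Saa2 were above wild type in the MDR2-null pool and below it in both pools without the receptor. Saa4, the constitutive member of the family, was below wild type in all 3 mutant pools (4370, 3469, 2825 and 1289; -1.76). Of 34 complement and coagulation factors, all of which reached 100, 2 were higher and 11 lower (median -0.34). Mbl2, a mannose-binding lectin that starts the lectin pathway, measured 1543, 1254 and 1438 in the wild-type and single-null pools and differed by -2.95 in the double-null pool. F11, coagulation factor XI, measured 1268, 783, 724 and 326 (-1.96). The terminal complement genes C8a (3984, 4602, 713 and 1310; -1.60) and C6 (2597, 4355, 385 and 860; -1.59), which are also on the male-biased list, were lowest in the GHR-null pool. Among serpins, Serpina7, the thyroxine-binding globulin, was higher (504, 1071, 748 and 4354; 3.11) and so was Serpinb6b (103, 294, 102 and 870; 3.08); 4 were higher and 5 lower of 24, of which 19 reached 100.

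**Figure D5:**
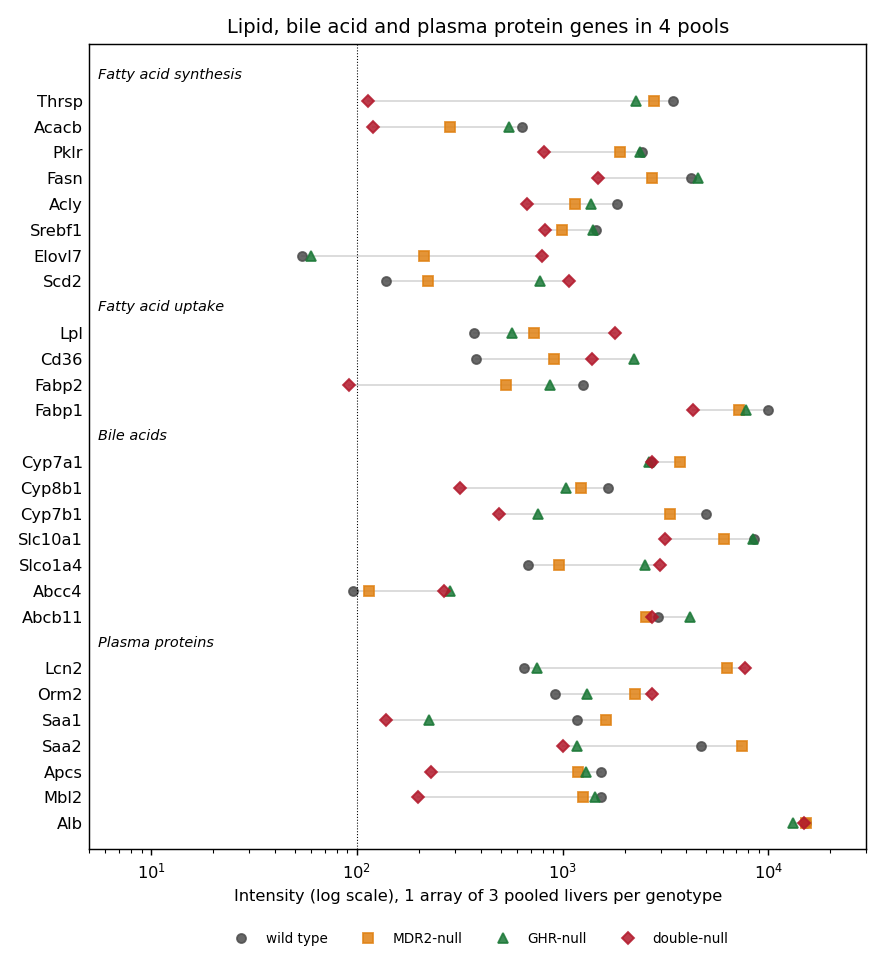
Intensity (horizontal, log scale) of fatty acid, bile acid and plasma protein genes (rows) in the 4 pools; each symbol is 1 array of 3 pooled livers and the dotted line is 100. The double-null pool is lowest for Thrsp (113), Fabp2 (92), Apcs (229) and Mbl2, near wild type for Cyp7a1 and Alb, and highest for Lpl (1801) and Lcn2 (7705).

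Stress and growth genes differed by small medians. Of 49 cell cycle genes 24 reached 100, 9 were higher and 2 lower (median 0.29). Ccnd1, cyclin D1, measured 280, 1456, 997 and 2065 (2.88), higher in all 3 mutant pools. The proliferation gene Mki67, from the panel of liver genes, was under 100 in all 4 pools (49, 80, 66 and 86). In the p53 and apoptosis list 14 of 36 were higher and 1 lower (29 reached 100). Gadd45b, a stress-induced growth arrest gene, measured 75, 148, 131 and 311 (2.05), and Tnfrsf12a, the TWEAK receptor, 162, 311, 167 and 607 (1.91). In the NRF2 and oxidative stress list 12 of 39 were higher and 4 lower (36 reached 100), or 2 lower with centring on hepatocyte proteins. Its highest member was Cybb, the phagocyte oxidase subunit (445, 2849, 633 and 2906; 2.71), a macrophage gene. Hmox1, haem oxygenase, measured 237, 298, 343 and 521 (1.14). Of 40 genes of ER stress and the amino acid response 4 were higher and 10 lower (37 reached 100). Asns, asparagine synthetase, measured 222, 200, 66 and 1219 (2.46), while Atf4, the transcription factor that induces it, had 320, 182, 226 and 188 (-0.77). The annexin and S100 list had 7 higher and 1 lower of 25 (14 reached 100). S100a11 measured 238, 1172, 359 and 2074 (3.12) and Anxa5 791, 4487, 843 and 4252 (2.43), high in both MDR2-lacking pools.

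In central metabolism, the urea cycle and amino acid list had no higher and 8 lower members of 38, all of which reached 100 (median -0.22). Hal, histidine ammonia lyase, measured 3840, 2381, 3766 and 1305 (-1.56), and Glul, glutamine synthetase of pericentral hepatocytes, 3781, 4363, 3705 and 1845 (-1.04). In both genes the single-null pools were closer to wild type than the double-null pool was. The glucose list had 6 higher and 5 lower of 30 (29 reached 100). G6pc, glucose 6-phosphatase, measured 4661, 4743, 3488 and 1487 (-1.65), and Pdk1, a kinase that inhibits pyruvate dehydrogenase, 817, 322, 693 and 191 (-2.10). Pck1, the other gatekeeper of glucose production, chosen after its values were seen, was near wild type (3846, 4508, 3827 and 4285). The respiratory chain had none higher and 2 lower of 47, all of which reached 100, with a median of -0.25; centring on the median gene raised the lower count to 5 and centring on hepatocyte proteins reduced it to 1. Hnf4a, the master transcription factor of hepatocytes, measured 2833, 3279, 3242 and 2959 (0.06).

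The split between higher and lower genes varied with intensity. Among the 2822 genes whose higher pool was at 100 up to 200, 6.87% were 2-fold higher and 0.957% lower. Among the 3894 genes at 200 up to 500 the shares were 7.73% and 2.03%. Among the 828 genes at 2000 and over, 4.59% were higher and 9.54% lower. For the 2943 genes at 500 up to 2000 they were 6.42% and 4.32%. The bins group different probes, so these shares describe the arrays and compare no levels between genes. Just inside the threshold of 100 stood Car13 (38 and 100 in the wild-type and double-null pools), Clec5a (22 and 100) and Slc15a2 (47 and 101), and just outside it Kbtbd8 (39 and 99), S100a6 (35 and 99) and Cpeb1 (48 and 98).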

How the data were processed

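Per the submitters' processing notes the authors made the deposited intensity values with RMA in Affymetrix Expression Console 1.1. RMA corrects background, quantile normalizes arrays and summarises probes, which pulls the overall distributions of the arrays together. The deposited intensities are whole numbers from 6 to 22355, a linear scale, so log2 was taken here; rounding makes low values coarse. Of 35556 rows, 21789 had exactly 1 gene symbol in GEO's platform annotation, and 21698 of these matched RefSeq (GRCm38.p6) by gene identifier. For the 999 genes with several rows, the row of highest mean intensity on the 4 arrays stood for the gene. Depth does not apply to arrays; their number, 1 per genotype, limits the precision, and no test was possible. The member genes and the 51 lists (1328 of 1476 distinct genes measured) were chosen with earlier results of these data known. Genes named are the targets, the 20 highest and 20 lowest (predicted loci left out: 9 of the 2-fold higher and 18 of the 2-fold lower genes), up to 6 per list, a panel of liver genes, and 3 on each side of the threshold; others are marked. Alternatives included cyclic loess (limma 3.58.1 in R 4.3.3) and centring. Counting was done with pandas 2.3.3 in Python 3.11.15, and the scripts were tested on simulated data. Motifs were searched in the promoter windows of the 15563 measured genes that have one, of which 8419 are at 100 or more.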

Additional observations from a re-analysis of the deposited data

Results flagged for a closer look

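Probe sets that the comparison left out also differed between the pools. Of 1621 rows that the platform annotation pairs with several gene symbols, 814 reached an intensity of 100 in either pool; 49 of them were at least 2-fold higher in the double-null pool and 31 at least 2-fold lower. Of 12146 rows with no symbol, 3898 reached 100; 214 were higher and 95 lower by the same 2-fold rule. These rows were not named or analysed further here.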

How the results depend on the processing

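No paired analysis was possible because each genotype had 1 array. The counts concern genes at least 2-fold higher and genes at least 2-fold lower. At the 75th percentile of intensity (329) they were 339 and 241, and at 1.5-fold the counts were 1437 and 796. Other settings stayed within 1.5 times of 722 and 312: no level filter gave 803 and 324, the mean of 4 arrays at 100 or more 592 and 301, cyclic loess 685 and 311 (676 and 305 of the same genes), centring on the median gene 644 and 333, the mean of all rows 712 and 311, and flooring both arrays at 100, chosen after seeing the data, 528 and 285. Centring on hepatocyte secreted proteins shifted the median gene by 0.11 and gave 869 and 260, a share of 77.0% higher against 69.8%. Of 51 list medians, 36 kept their sign under all settings run; the 15 that did not were small. They are those of the growth hormone axis, bile transport, endothelial, B cell, acute phase, iron, PPAR alpha, glucose, zonation, hepatocyte secreted, hepatocyte transcription factor, clock, EGF receptor, serpin and sex-linked lists. Scaling moved 9 of 102 list counts by over 1.5 times. With no replicate, noise in a single gene cannot be told from a difference, and no background level was measured for low intensities.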

Other observations

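Several lists not described above gave further values, as 4 intensities in the order used above, followed by the log2 difference. Among circadian clock genes, 4 of 20 were at least 1.5-fold higher and 4 lower (19 reached 100). Per1, a repressor of the clock, measured 114, 195, 128 and 281 (1.30), and Arntl, the activator BMAL1, 234, 109, 213 and 96 (-1.29); no source used here states the hour of dissection. Among hepatocyte transcription factors 5 of 35 were higher and 5 lower (31 reached 100), with Klf6 at 171, 378, 274 and 790 (2.21) and Esr1, the oestrogen receptor, at 401, 359, 460 and 193 (-1.05). Of the 21 EGF receptor family genes and ligands 6 were higher and 2 lower (18 reached 100), with Hgf, hepatocyte growth factor, at 309, 402, 426 and 774 (1.32) and Nrg1, a ligand of ERBB3, at 53, 110, 56 and 142 (1.42). Iron genes were split, with 5 of 22 higher (3 with centring on the median gene) and 4 lower (1 with centring on hepatocyte proteins); Leap2, a liver peptide, measured 285, 87, 248 and 63 (-2.18) and Id1, a target of BMP signalling, 168, 176, 275 and 435 (1.37). The zonation list had 6 of 31 higher and 6 lower, and Cdh1, the periportal cadherin that duct cells also make, measured 586, 1150, 385 and 1256. Erythroid markers had 2 of 10 higher and 1 lower, the last being the haem synthesis gene Alas2 (1340, 1161, 436 and 279; -2.26), also male-biased in liver. Markers of other tissues had 1 of 19 higher, the leukocyte gene Ptprc (152, 291, 249 and 410; 1.43), and 4 lower (2 with centring on hepatocyte proteins).

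By chromosome, the share of genes reaching 100 that were 2-fold higher ran from 4.42% (chromosome 14) to 8.28% (chromosome 3) on the autosomes, against 12.6% on the X, where 36 of 286 were higher; no test was made of this. Of the 40 measured neighbours of Abcb4, 20 on each side, 10 were 1.5-fold higher and 2 lower (23 reached 100); over all genes that reached 100, 13.7% were higher and 7.59% lower by that rule, and over all measured genes 7.21% and 3.99%. They include the paralogs Abcb1a and Abcb1b (59, 129, 66 and 144; 1.29). Of the 22 neighbours of Ghr, which lies near a chromosome end, 5 were higher and 3 lower (16 reached 100), among them the complement genes C6 and C9 (4715, 5115, 1690 and 2820; -0.74).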
